A study of Arabidopsis thaliana with 6 samples.

Results

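The 10 genes described here encode the nuclear part of Rubisco and the enzymes around it that fix carbon in the chloroplast: the Rubisco small subunit genes RBCS1A (AT1G67090), RBCS1B (AT5G38430), RBCS2B (AT5G38420) and RBCS3B (AT5G38410) and the Rubisco activase gene RCA (AT2G39730). Calvin cycle enzymes are encoded by PRK (AT1G32060), GAPA1 (AT3G26650), GAPB (AT1G42970), SBPASE (AT3G55800) and HCEF1 (AT3G54050). They were chosen by gene identifier, by a rule that uses no measured value but was set with earlier results of these data known, and all 10 were among the 32833 genes of the count table. The libraries were made from whole seedlings, 7 days old, of a gbpl3 mutant and of the Col-0 wild type, with 3 libraries per genotype. GBPL3 belongs to the guanylate-binding-like proteins and is named in the title as a component of the nuclear basket, which lies on the chromatin side of the nuclear pore. Both genotypes were left untreated on 1/2 MS with 1% sucrose, and each RNA extraction used about 50 mg of seedlings. The labels give neither the allele nor the kind of mutation, and the numbers 1 to 3 in the mutant's genotype labels were read as replicate numbers because the design text speaks of triplicates. Whether the libraries of a genotype are separate cultures is not stated, so the p-values rest on a spread between samples that may be technical.

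Rubisco binds CO2 to ribulose bisphosphate and is built from a large subunit encoded in the chloroplast genome and small subunits encoded by a nuclear gene family. Its small subunit transcripts are among the most abundant of green tissue and are known to respond to light, sugar and the time of day. Activase removes inhibitory sugar phosphates from Rubisco, the GAPA and GAPB subunits form the NADPH-dependent dehydrogenase of the reduction step, and the bisphosphatases and phosphoribulokinase regenerate the acceptor of CO2.

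Total counts were 10836165 to 12911891 in the gbpl3 libraries and 9530643 to 12104120 in the Col-0 libraries. Levels are given as CPM, the count normalised to the library size with TMM factors, and a log2 fold change is gbpl3 over Col-0. Genes were tested by quasi-likelihood in edgeR, and p was adjusted by Benjamini-Hochberg over the 20677 genes tested, with a threshold of 0.05. GBPL3 transcripts (AT5G46070) were at 14.8, 18.8 and 15.6 CPM in gbpl3 and at 68.9, 67.9 and 66.0 CPM in Col-0, a 4.11-fold lower level in the mutant (adjusted p = 5.11e-09). Markers of green tissue were high in every library, and 14 light-harvesting and photosystem genes summed to 62960 to 75850 CPM in gbpl3 and to 46988 to 59912 CPM in Col-0. Root markers, 13 genes of which none was at 0, summed to 153 to 189 CPM in gbpl3 and to 215 to 249 CPM in Col-0. Of them 2 were lower and none higher, against 4.69% lower and 6.06% higher of all tested genes. Estimates lay below 0 for 8 root markers and above 0 for 5. RCI3, 1 of the 2 called, averaged 27.6 CPM in gbpl3 and 67.7 CPM in Col-0, which is most of the difference between the sums. Without RCI3 the sums of gbpl3 replicate 1 and Col-0 replicate 1 are about level, so the sums do not show root markers as a whole to be lower. Seed storage markers, 10 genes of which 5 had no count in any Col-0 library, summed to 24.1 to 242 CPM in gbpl3 and to 0.262 to 2.71 CPM in Col-0. Of these, 5 passed the count filter, which genes so low in Col-0 can pass only through gbpl3, and those 5 were higher. Of 9 clock genes, which track the time of harvest, 1 was lower and none higher, against 4.69% and 6.06% of all tested genes. The part of these differences in the values of the carbon fixation genes was not tested, and in whole seedlings a change in the number of green cells and a change in RNA per green cell cannot be told apart.

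The 4 small subunit genes are close copies of each other, and this bears on how their reads can be counted. RBCS1A lies on chromosome 1 (TAIR10.1, chr1:25048158-25049667, minus strand). The other copies form a cluster on the minus strand of chromosome 5, with RBCS3B at chr5:15376988-15378642, RBCS2B at chr5:15380907-15382071 and RBCS1B at chr5:15383167-15385320. The coding part of the first exon is shown for each copy, taken from the reference genome at chr1:25049079-25049249 for RBCS1A, chr5:15384985-15385155 for RBCS1B, chr5:15381808-15381978 for RBCS2B and chr5:15378136-15378306 for RBCS3B. Each has 171 bases, begins at the start codon, and carries capitals at the 32 positions where the copies are not all the same:
RBCS1A: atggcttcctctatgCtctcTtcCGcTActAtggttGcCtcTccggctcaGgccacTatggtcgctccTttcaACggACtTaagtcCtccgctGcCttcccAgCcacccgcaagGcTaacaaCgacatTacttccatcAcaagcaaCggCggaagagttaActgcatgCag
RBCS1B: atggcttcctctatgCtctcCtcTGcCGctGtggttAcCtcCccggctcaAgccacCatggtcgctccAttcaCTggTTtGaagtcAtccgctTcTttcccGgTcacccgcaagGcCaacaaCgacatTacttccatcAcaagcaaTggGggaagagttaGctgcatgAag
RBCS2B: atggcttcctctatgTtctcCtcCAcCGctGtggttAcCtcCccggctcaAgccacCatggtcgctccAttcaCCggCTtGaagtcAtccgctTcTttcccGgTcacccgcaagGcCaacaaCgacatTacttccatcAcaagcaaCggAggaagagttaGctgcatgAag
RBCS3B: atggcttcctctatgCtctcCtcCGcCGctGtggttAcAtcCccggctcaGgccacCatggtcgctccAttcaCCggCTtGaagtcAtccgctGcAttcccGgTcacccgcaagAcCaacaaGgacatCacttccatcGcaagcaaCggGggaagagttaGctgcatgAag
In this exon RBCS1A differed from RBCS1B, RBCS2B and RBCS3B at 25, 24 and 25 bases. Among the chromosome 5 copies the differences were 7 bases between RBCS1B and RBCS2B, 12 between RBCS1B and RBCS3B and 11 between RBCS2B and RBCS3B. Over the whole coding sequence RBCS1A was 90.4% to 90.6% identical to the others, whereas the chromosome 5 copies were 96.7% to 97.3% identical to each other. The longest run that RBCS1B and RBCS3B share exactly has 230 bases and lies in the later part of the coding sequence, from base 307 to base 536 in RBCS1B:
shared by RBCS1B and RBCS3B: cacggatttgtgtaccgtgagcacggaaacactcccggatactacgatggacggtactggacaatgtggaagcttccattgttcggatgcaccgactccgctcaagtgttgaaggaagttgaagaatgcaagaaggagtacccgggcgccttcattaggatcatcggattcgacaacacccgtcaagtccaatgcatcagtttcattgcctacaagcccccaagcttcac
A read of 150 bases inside this run cannot be assigned to either gene by its own sequence. Of the coding windows of 150 bases, 20.4% in RBCS1B and 19.7% in RBCS3B occurred exactly in another copy, and none did in RBCS2B or RBCS1A. At 50 bases the shares were 51.3% in RBCS1B, 38% in RBCS2B, 40.6% in RBCS3B and 3.64% in RBCS1A. How reads that match several genes were treated is not given in the sources used here, so the separate levels of the chromosome 5 copies are uncertain.

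None of the 10 genes passed the test between gbpl3 and Col-0, where 10.7% of all tested genes did. Of the 10 estimates 9 lay above 0, and that of RBCS1B lay below. Their median log2 fold change was 0.19, against -0.003 over all tested genes. All 10 genes are abundant, and the 261 genes that averaged 400 CPM or more, these 10 included, had a median of 0.12, with 20.7% of them higher and 10.3% lower. At an unadjusted p under 0.05 there were 3 of the 10 genes, PRK, GAPA1 and RBCS1B, against 23.6% of all tested genes. DESeq2 called 1 of them, PRK, and limma on FPKM none. Every 95% interval of a fold change, not adjusted for the number of genes, lay between 0.589 and 1.47, so that a 2-fold change in either direction was outside each of them. The smallest count of any of the 10 genes in any library was 4456, for which counting error is 1.5%.

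**Figure D1:**
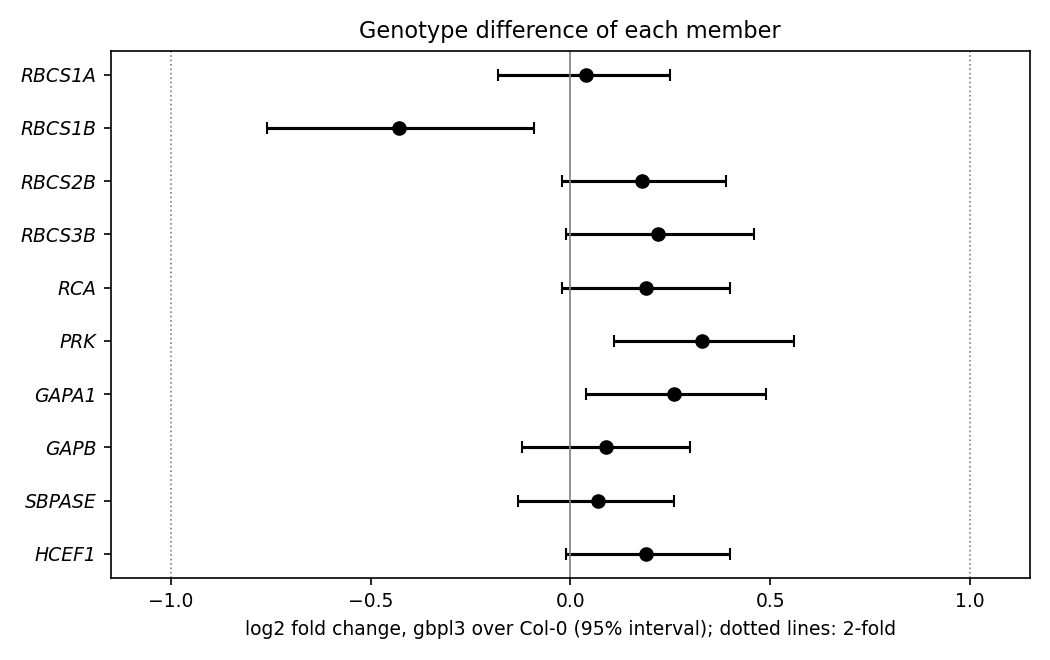
Log2 fold change of each of the 10 genes, gbpl3 over Col-0, with its 95% interval from the edgeR fit. The intervals lie between -0.76 and 0.56, inside the dotted lines at a 2-fold change, and those of PRK, GAPA1 and RBCS1B do not include 0.

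RBCS1A, the main small subunit gene, was the second most abundant gene of the table by mean CPM. It had 13391, 11454 and 13034 CPM in gbpl3 replicates 1 to 3 and 12603, 12049 and 12289 CPM in Col-0 replicates 1 to 3. The Col-0 libraries all fell inside the range of the gbpl3 libraries, whose spread was wider (12626 ± 1031 CPM in gbpl3 and 12314 ± 278 CPM in Col-0, SD, n = 3 each). Its log2 fold change was 0.04 with a 95% interval of -0.18 to 0.25 (adjusted p = 0.884), and without gbpl3 replicate 1 it was -0.01.

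RBCS3B, the most abundant copy of the chromosome 5 cluster, had 6078, 4804 and 5727 CPM in gbpl3 and 4482, 5205 and 4536 CPM in Col-0. The lowest mutant library, replicate 2, lay below the highest Col-0 library, also replicate 2, and the other mutant libraries lay above all of Col-0. The log2 fold change was 0.22 (95% interval -0.01 to 0.46, adjusted p = 0.234). RBCS2B, which encodes a small subunit of the same family, had 1989, 1835 and 1962 CPM in gbpl3 and 1818, 1587 and 1688 CPM in Col-0. The genotypes did not overlap, but the nearest libraries were only 1835 and 1818 CPM, and the log2 fold change of 0.18 (95% interval -0.02 to 0.39) did not pass the test (adjusted p = 0.275).

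RBCS1B was the least abundant copy and the one gene of the set with a negative estimate. It had 488, 687 and 582 CPM in gbpl3 and 1047, 609 and 712 CPM in Col-0. The genotypes overlapped, and Col-0 replicate 1 alone stood far above the rest. The log2 fold change was -0.43 (95% interval -0.76 to -0.09, adjusted p = 0.0977). It was -0.17 without Col-0 replicate 1 (adjusted p = 0.45) and -0.59 without Col-0 replicate 2, where it passed the test (adjusted p = 0.0111). It also passed without a filter on low counts (log2 fold change -0.43, adjusted p = 0.00937). With the counts of RBCS1B, RBCS2B and RBCS3B summed to 1 row, which removes the effect of counted reads assigned to the wrong one of these copies but not that of reads left uncounted, the log2 fold change was 0.16 (95% interval -0.06 to 0.37, adjusted p = 0.388). With all 4 genes summed it was 0.08 (95% interval -0.14 to 0.30, adjusted p = 0.705).

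The plot of levels by library shows the same order of the 4 copies in all libraries. Per kilobase of coding sequence, which differs little between the copies, the share of RBCS1A was 61.6%, 61.5% and 61.8% of the small subunit sum in gbpl3 and 63.7%, 62.5% and 64.5% in Col-0. RBCS3B followed with 27.1%, 25% and 26.3% in gbpl3 and 21.9%, 26.1% and 23% in Col-0. RBCS2B came next at 9.1% to 9.8% in gbpl3 and 8.19% to 9.14% in Col-0, and RBCS1B last at 2.23% to 3.67% in gbpl3 and 3.15% to 5.26% in Col-0. No neighbours in that order overlapped. The RBCS1A share of summed deposited FPKM was 57.2%, 56.5% and 57.2% in gbpl3 and 58.7%, 58.7% and 59.8% in Col-0. Every gbpl3 library was thus below every Col-0 library, by 2.12 percentage points in the mean, and the difference was 1.92 to 2.19 points on raw counts, per exon length or per coding length. The exact two-sided permutation p was 0.1, the smallest that 3 against 3 libraries allow. Deposited FPKM divide by lengths of 1 to 2.09 times the union of annotated exons for these copies, so by FPKM RBCS2B stood above RBCS3B in 5 of the 6 libraries (20.8% and 20.2% of the sum in gbpl3 replicate 1), Col-0 replicate 2 being the exception with 18.9% and 19.7%. Per coding length RBCS3B was higher in all 6.

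**Figure D2:**
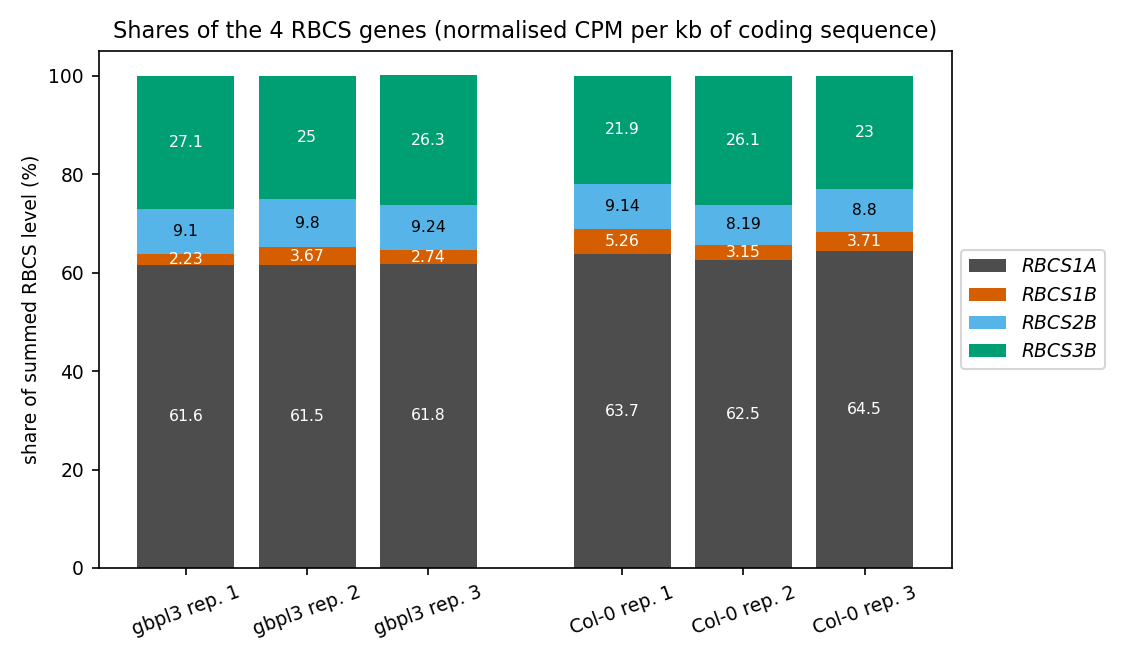
Share of each small subunit gene in the summed small subunit level of each library, in percent, from normalised CPM per kilobase of coding sequence, with gbpl3 libraries on the left. RBCS1A takes 61.5% to 61.8% in gbpl3 and 62.5% to 64.5% in Col-0, and RBCS1B is the smallest segment in all 6 libraries.

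RCA, the activase gene, had 4969, 4777 and 5409 CPM in gbpl3 and 4584, 4558 and 4148 CPM in Col-0. All gbpl3 libraries were above all Col-0 libraries, with a log2 fold change of 0.19 (95% interval -0.02 to 0.40, adjusted p = 0.271). Its ratio to the summed small subunit FPKM was 0.137, 0.152 and 0.153 in gbpl3 and 0.138, 0.144 and 0.13 in Col-0. These ranges overlapped (exact two-sided permutation p = 0.3). RCA lies on chromosome 2 and makes protein isoforms by alternative splicing, which counts per gene do not separate.

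PRK, which encodes the phosphoribulokinase that makes the acceptor of CO2, came closest to the threshold. It had 1160, 999 and 1173 CPM in gbpl3 and 800, 981 and 861 CPM in Col-0. The genotypes did not overlap, although the lowest mutant library and the highest Col-0 library, both replicate 2, were close. The log2 fold change was 0.33 (95% interval 0.11 to 0.56, adjusted p = 0.0532). It passed the test with DESeq2 (adjusted p = 0.0183), with upper-quartile scaling (0.0475), without a filter on low counts (0.0276), without gbpl3 replicate 2 (log2 fold change 0.41, adjusted p = 0.0348) and without Col-0 replicate 2 (0.42, 0.0176). Under the other settings its adjusted p reached up to 0.213.

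The A and B subunits of the NADPH-dependent glyceraldehyde phosphate dehydrogenase, GAPA1 and GAPB, were measured as separate genes. GAPA1 had 1221, 968 and 1207 CPM in gbpl3 and 928, 968 and 934 CPM in Col-0, so that gbpl3 replicate 2 and Col-0 replicate 2 were level to 3 digits while the other mutant libraries were higher. Its log2 fold change was 0.26 (95% interval 0.04 to 0.49, adjusted p = 0.131), and 0.36 without gbpl3 replicate 2, where it passed the test (adjusted p = 0.0365). GAPB had 1491, 1396 and 1611 CPM in gbpl3 and 1440, 1430 and 1356 CPM in Col-0, with overlap and a log2 fold change of 0.09 (95% interval -0.12 to 0.30, adjusted p = 0.645). The ratio of GAPA1 to GAPB in FPKM was 0.866, 0.733 and 0.793 in gbpl3 and 0.682, 0.716 and 0.729 in Col-0. Every mutant library had the higher ratio, by 0.167 in the mean of its log2 (exact two-sided permutation p = 0.1, the smallest possible). Without gbpl3 replicate 1 this difference was 0.105.

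SBPASE and HCEF1 encode chloroplast bisphosphatases of the regeneration steps, for sedoheptulose bisphosphate and fructose bisphosphate. SBPASE had 657, 625 and 659 CPM in gbpl3 and 647, 611 and 595 CPM in Col-0, and its log2 fold change was 0.07 (95% interval -0.13 to 0.26, adjusted p = 0.742). HCEF1 had 530, 500 and 564 CPM in gbpl3 and 438, 500 and 455 CPM in Col-0. Its lowest mutant library and highest Col-0 library met at 500 CPM, and the log2 fold change was 0.19 (95% interval -0.01 to 0.40, adjusted p = 0.246).

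**Figure D3:**
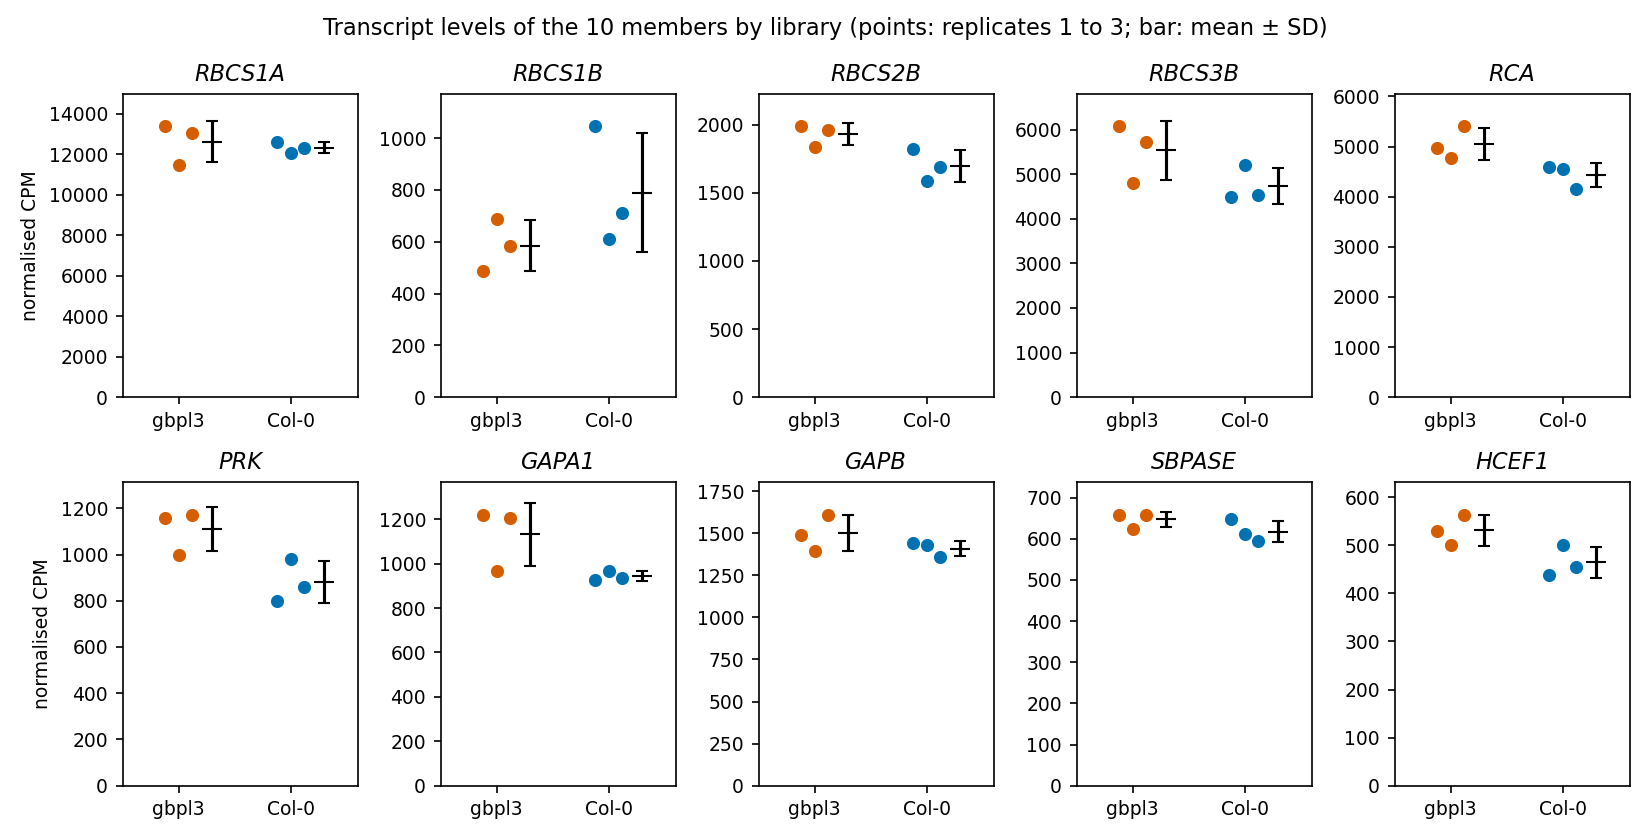
Normalised CPM of the 10 genes in each library, with gbpl3 left of Col-0, points for replicates 1 to 3 and the mean with its SD beside them. The genotypes overlap in 6 of the 10 panels, and RBCS1B alone has a lower mean in gbpl3 (586 CPM) than in Col-0 (789 CPM).

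Genotypes did not overlap for 4 of the 10 genes, where they did not for 28.1% of all tested genes. These 4 genes had all gbpl3 libraries above all Col-0 libraries (RBCS2B, RCA, PRK and GAPA1, the last by less than counting error), where 14.5% of all tested genes did, and none had them all below, where 13.6% did. The libraries of a genotype were not alike. Over all genes but those with few counts, the chi-square per degree of freedom between the counts of 2 libraries was 5.78 to 15 within Col-0. It was 5.11 to 8.12 within gbpl3 and 10.4 to 36.4 between the genotypes. Replicate 2 was the lowest gbpl3 library for 9 of the 10 genes and the highest for RBCS1B. It was the lowest mutant library for 34.5% of all tested genes and for 53.6% of the genes that averaged 400 CPM or more. In the lists described below it was lowest for 14 of 14 light-harvesting and photosystem, 9 of 9 thioredoxin, 12 of 16 photorespiration and 11 of 15 other Calvin cycle genes. For starch and sucrose, Rubisco assembly and regulators the numbers were 5 of 11, 4 of 12 and 4 of 18. A low replicate 2 was thus not particular to the 10 genes. Summed over the 10 genes the level was 31974, 28045 and 31927 CPM in gbpl3 and 28787, 28498 and 27573 CPM in Col-0. Replicate 2 of gbpl3 thus lay within the range of Col-0, and the other mutant libraries lay above it. For the 4 small subunit genes alone the sums were 21946, 18780 and 21304 CPM in gbpl3 and 19950, 19449 and 19224 CPM in Col-0.

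**Figure D4:**
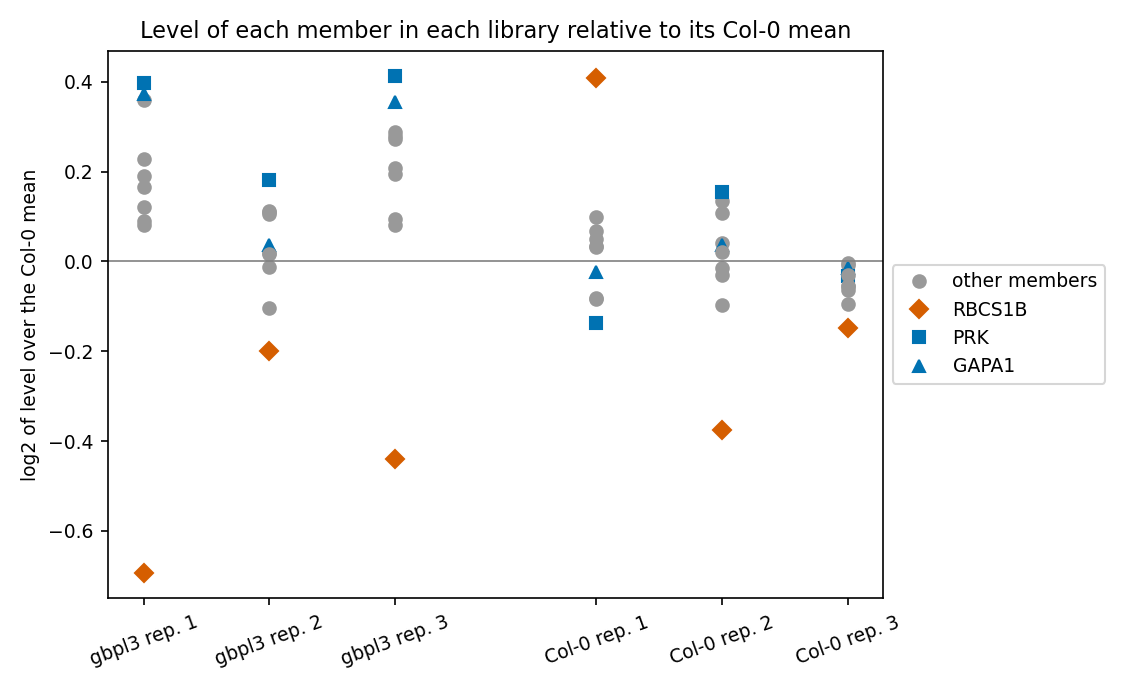
Log2 of the level of each of the 10 genes in each library relative to that gene's Col-0 mean, with gbpl3 libraries on the left. In gbpl3 replicates 1 and 3 all genes but RBCS1B lie above 0, while gbpl3 replicate 2 lies lower than both for all genes but RBCS1B.

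Per kilobase of annotated exon, the levels ran from RBCS1A (9958 ± 813 CPM per kilobase in gbpl3 and 9711 ± 219 in Col-0, SD, n = 3 each) through RBCS3B (3926 ± 467 and 3362 ± 285) and RCA (2404 ± 154 and 2108 ± 117) to RBCS2B (2063 ± 88 and 1816 ± 124). The enzymes followed with GAPB (809 ± 58 in gbpl3 and 760 ± 24.7 in Col-0), GAPA1 (646 ± 81.2 and 538 ± 12.1), PRK (588 ± 51.1 and 466 ± 48.7), SBPASE (370 ± 11.1 and 354 ± 15.3) and HCEF1 (322 ± 19.4 and 281 ± 19.6). RBCS1B stood at 309 ± 52.5 in gbpl3 and 417 ± 121 in Col-0. The libraries of neighbours in this order did not overlap, except those of GAPA1 and PRK in gbpl3, and those of RBCS1B with HCEF1 in gbpl3 and with PRK and SBPASE in Col-0. Every annotated exon was counted as length.

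The number of remaining genes of the cycle that passed the test was near the share of all tested genes. Of 15 further Calvin cycle genes, among them phosphoglycerate kinases, aldolases and transketolases, 1 was higher in gbpl3 and none lower, against 6.06% higher and 4.69% lower of all tested genes, and the median log2 fold change was 0.04. That gene was CP12-2, a small protein that ties PRK and the GAPA and GAPB dehydrogenase into an inactive complex in the dark. It had 109, 87.4 and 131 CPM in gbpl3 and 76.9, 80 and 85.1 CPM in Col-0 (log2 fold change 0.43, SE 0.12, adjusted p = 0.0323). The call ended without gbpl3 replicate 3, where the log2 fold change was 0.28 (adjusted p = 0.231). It also ended, at log2 fold changes of 0.44, 0.40 and 0.47, without gbpl3 replicate 1 (adjusted p = 0.0977), Col-0 replicate 1 (0.0585) or Col-0 replicate 3 (0.0741), and with limma on log2(FPKM + 1) (0.144).

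Of 12 genes for the large subunit and its assembly, 4 were lower in gbpl3 and none higher, against 4.69% lower and 6.06% higher of all tested genes. The 4 genes encode chloroplast chaperonins, the folding cage of newly made large subunits and other plastid proteins. CPN60B2 had 142, 173 and 144 CPM in gbpl3 and 345, 218 and 240 CPM in Col-0 (log2 fold change -0.81, SE 0.14, adjusted p = 0.00122). CPN60A1 fell by 0.56 on the log2 scale (SE 0.12, adjusted p = 0.00418), CPN60B1 fell by 0.56 (SE 0.12, adjusted p = 0.00658), and the co-chaperonin CPN20 fell by 0.60 (SE 0.14, adjusted p = 0.0108). The calls of CPN60B1 and CPN20 ended without gbpl3 replicate 1 (adjusted p = 0.0603 and 0.0808) or gbpl3 replicate 3 (0.0581 and 0.0568), which left 2 called. Col-0 replicate 1 had the highest level of all 4 genes, and without it the log2 fold change of CPN20 was -0.39 (adjusted p = 0.0292) and that of CPN60B2 was -0.58 (0.000693). With limma on log2(FPKM + 1) CPN20 had an adjusted p of 0.0732. CPN60A1, CPN60B1 and CPN20 averaged 400 CPM or more, and of all such genes 10.3% were lower and 20.7% higher. CPN60B2 (14228 counts over the 6 libraries), CPN60B1 (39914) and CPN20 (27320) overlap genes on the opposite strand with 2715, 9628 and up to 6485 counts, and the strand setting of the counting is not given in the sources used here.

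RBCL, the chloroplast gene of the large subunit, had raw counts of 294, 278 and 198 in gbpl3 and of 56, 244 and 104 in Col-0. The genotypes overlapped, and the log2 fold change of 0.92 did not pass the test (SE 0.30, adjusted p = 0.0593). It was 0.54 without Col-0 replicate 1 (adjusted p = 0.128) and 1.56 without Col-0 replicate 2 (adjusted p = 0.000332). DESeq2 gave an adjusted p of 0.367, and without a filter on low counts edgeR gave 0.000901. Chloroplast transcripts mostly lack the poly(A) tails by which messenger RNA is commonly selected, and the selection used is not given in the sources used here, so this level cannot be set against that of the small subunits.

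Thioredoxins switch on PRK, GAPB and the bisphosphatases in the light by reducing disulphide bonds. Of 9 genes of this control, 3 were higher in gbpl3 and none lower, against 6.06% higher and 4.69% lower of all tested genes, with a median log2 fold change of 0.28. With limma on FPKM none was called. TRXF2 had 122, 97 and 135 CPM in gbpl3 and 61.3, 88.2 and 84.6 CPM in Col-0 (log2 fold change 0.59, SE 0.14, adjusted p = 0.00935). TRXF1 rose 1.27-fold (adjusted p = 0.0386) and TRXM2 1.24-fold (adjusted p = 0.0467). TRXF1 (17116 counts over the 6 libraries) overlaps a gene on the opposite strand with 3471 counts, and the strand setting of counting is not given. The TRXF2 call ended without gbpl3 replicate 3 (adjusted p = 0.0838). The TRXF1 call ended without gbpl3 replicate 1, gbpl3 replicate 3, Col-0 replicate 1 or Col-0 replicate 3 (0.097 to 0.193), and the TRXM2 call ended whichever library was left out (0.0642 to 0.18). Without gbpl3 replicate 3 no gene of this list was called. Without gbpl3 replicate 1, Col-0 replicate 1 or Col-0 replicate 3 there was 1.

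Photorespiration recycles the phosphoglycolate that Rubisco forms when it takes oxygen in place of CO2. Of 15 tested genes of this pathway, 5 were higher in gbpl3 and none lower, against 6.06% higher and 4.69% lower of all tested genes, with a median log2 fold change of 0.17. With limma on FPKM none was called. HPR1, the peroxisomal hydroxypyruvate reductase, had 466, 399 and 526 CPM in gbpl3 and 290, 357 and 317 CPM in Col-0 (log2 fold change 0.53, SE 0.11, adjusted p = 0.00616). The glycolate oxidase genes GOX1 and GOX2, tandem copies of each other, rose 1.37-fold and 1.3-fold (adjusted p = 0.00867 and 0.0215). GGAT1, a glyoxylate aminotransferase, rose 1.35-fold (adjusted p = 0.0101), and SHM1, the mitochondrial serine hydroxymethyltransferase, rose 1.3-fold (adjusted p = 0.022). The HPR1 call ended without gbpl3 replicate 3 (adjusted p = 0.0573), and the other 4 ended without gbpl3 replicate 1, gbpl3 replicate 3 or Col-0 replicate 3 (0.0567 to 0.128). Without these libraries 1, 0 and 1 genes of the list were called. GOX1, GOX2, GGAT1 and SHM1 averaged 400 CPM or more, and of all such genes 20.7% were higher and 10.3% lower. PGLP1, the first enzyme of the pathway, could not be tested: its locus AT5G36700 had 4 counts over all 6 libraries and AT5G36790, whose coding sequence is identical, had 957.

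Of 11 genes that turn fixed carbon into starch and sucrose, 2 were higher in gbpl3 and none lower, against 6.06% higher and 4.69% lower of all tested genes, with a median log2 fold change of 0.19. With limma on FPKM none was called. TPT, which exports triose phosphate from the chloroplast, averaged 1045 ± 114 CPM in gbpl3 and 789 ± 86 CPM in Col-0 (SD, n = 3 each), without overlap (edgeR log2 fold change 0.40, SE 0.11, adjusted p = 0.0239). GBSS1, the starch synthase that makes amylose, rose 1.92-fold at a low level (10.5 ± 2.03 CPM in gbpl3 and 5.49 ± 1.70 CPM in Col-0, SD, n = 3 each, edgeR adjusted p = 0.0191). The TPT call ended without gbpl3 replicate 1 (adjusted p = 0.0944), gbpl3 replicate 3 (0.137) or Col-0 replicate 3 (0.138). The GBSS1 call ended without gbpl3 replicate 1 (0.0897), gbpl3 replicate 2 (0.0733), Col-0 replicate 2 (0.052) or Col-0 replicate 3 (0.0561). Without gbpl3 replicate 1 or Col-0 replicate 3 no gene of the list was called. TPT averaged 400 CPM or more, and of all such genes 20.7% were higher and 10.3% lower.

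Regulators of light and plastid development had 7 of 17 tested genes higher in gbpl3 and none lower, against 6.06% higher and 4.69% lower of all tested genes. The median log2 fold change was 0.00, with 9 estimates above 0 and 8 below. HY5, HYH and GBF1 were among those below, at -0.42, -0.12 and -0.08, and none of them was called (adjusted p = 0.179, 0.893 and 0.717). Several genes of the list control RBCS transcription, and whether they did so here was not tested. PIF4, a bHLH factor degraded on phytochrome activation, had 149, 141 and 160 CPM in gbpl3 and 64.5, 105 and 81.2 CPM in Col-0 (log2 fold change 0.84, SE 0.14, adjusted p = 0.000598). The related PIF5 rose 1.42-fold (adjusted p = 0.00232), the photoreceptor genes PHYA, CRY1 and CRY2 rose 1.43-fold, 1.37-fold and 1.31-fold (adjusted p = 0.00548, 0.00742 and 0.0213), PIF1 rose 1.45-fold (adjusted p = 0.0262), and GLK1, an activator of photosynthesis genes, rose 1.26-fold (adjusted p = 0.035). The PIF4, PIF5 and PHYA calls remained whichever library was left out, and that of PHYA ended with limma on log2(FPKM + 1) and log2(FPKM + 0.1) (adjusted p = 0.0771 and 0.0799). The CRY1 call ended without Col-0 replicate 3 (adjusted p = 0.0595), and those of CRY2, PIF1 and GLK1 ended without gbpl3 replicate 1, gbpl3 replicate 3, Col-0 replicate 1 or Col-0 replicate 3 (0.0547 to 0.183), that of GLK1 also without gbpl3 replicate 2 (0.0683). Without gbpl3 replicate 1, gbpl3 replicate 3 or Col-0 replicate 1, 4 genes were called, and without Col-0 replicate 3 there were 3. PIF1 (1775 counts over the 6 libraries) overlaps a gene on the opposite strand with 387 counts, and the strand setting of counting is not given.

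Light-harvesting and photosystem genes, which supply the energy for the cycle, had 9 of 14 genes higher in gbpl3 and none lower, with a median log2 fold change of 0.38. Of all tested genes 6.06% were higher, and of those averaging 400 CPM or more, as all 14 do, 20.7% were. With limma on FPKM none of the 14 was called. LHCB2.2 rose 1.52-fold (adjusted p = 0.00358), its close copy LHCB2.1 1.55-fold (adjusted p = 0.00527) and LHCA3 1.39-fold (adjusted p = 0.016). The number called was 2 without gbpl3 replicate 1, gbpl3 replicate 3 or Col-0 replicate 3 and 4 without Col-0 replicate 1, and the LHCA3 call ended without the first 3 of these (0.0784 to 0.0888). Whether the carbon fixation genes differ from these lists in their response was not tested.

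**Figure D5:**
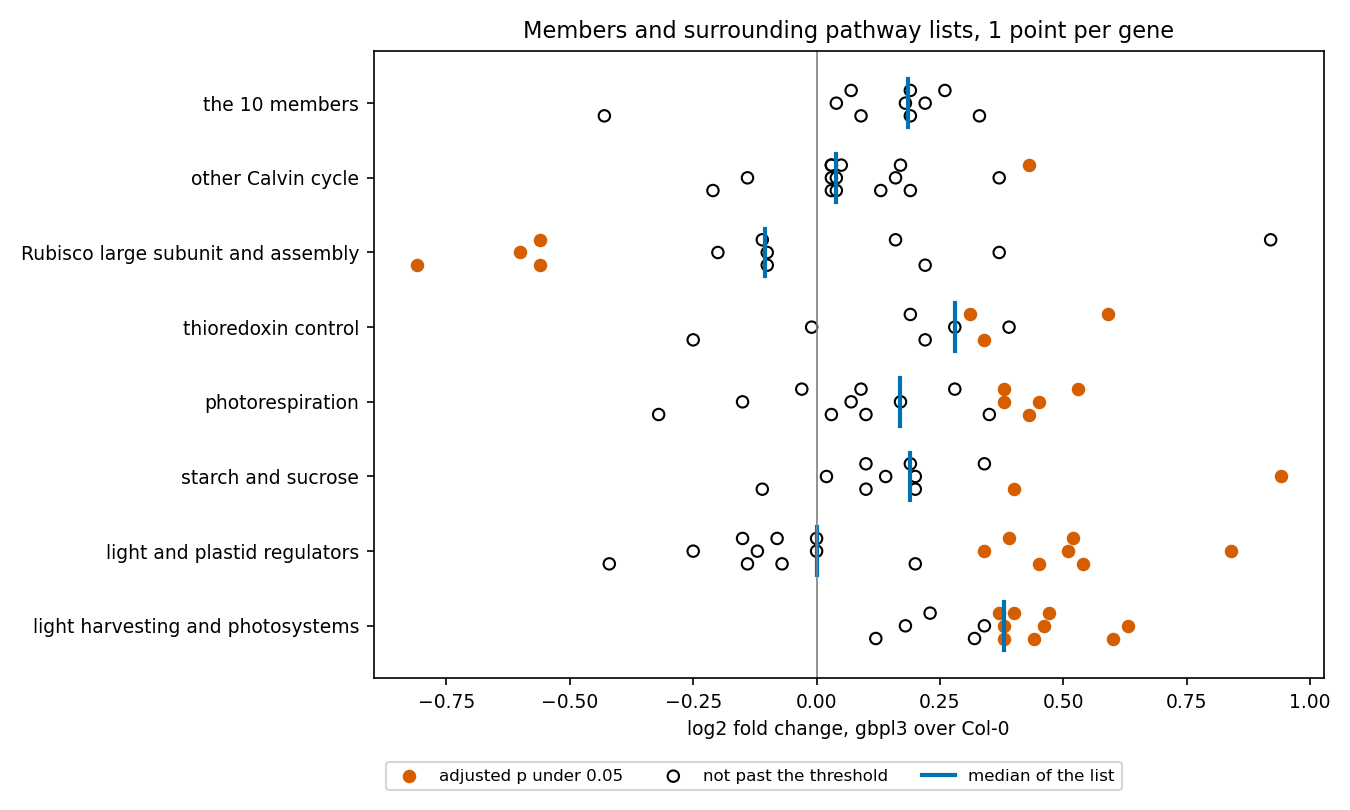
Log2 fold change, gbpl3 over Col-0, of each tested gene of the 10 carbon fixation genes (called members in the plot) and of 7 lists of related genes, with filled points for adjusted p under 0.05 and a bar at the list median. All 10 carbon fixation genes are open points with a median of 0.19, and the 4 filled points on the left are the chloroplast chaperonins.

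The mean of the 10 genes' log2 CPM, each centred over the libraries, was 0.08, -0.03 and 0.12 in gbpl3 and -0.02, -0.05 and -0.10 in Col-0. Among 3900 other genes averaging 50 CPM or more, the 5 nearest to this profile over the 6 libraries were AT4G27700, PTR2, PMP, AT1G12120 and AT1G63770, with a root-mean-square difference of 0.0177 to 0.0321 on the log2 scale. Their log2 fold changes were 0.08 to 0.13, and none of the 5 passed the test (adjusted p = 0.467 to 0.709). Both follow from the choice of genes by nearness to this profile in the same libraries, and are no separate result.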

How the data were processed

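Whole-seedling RNA was sequenced as paired reads from 3 libraries per genotype, made with a strand-specific Illumina protocol per the labels. The authors deposited whole-number counts per gene, taken as raw, and FPKM values, which equal the deposited counts over a gene length and the library total. The build TAIR10 and the tools HTSeq 0.6.1p1 and HISAT2 2.0.4 are named per the submitters' processing notes. For read filters and the strand setting of counting, nothing is given in the sources used here. Genotype and replicate number came from sample titles, and no sample column was left over.

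The edgeR package (4.0.16, R 4.3.3) filtered genes with filterByExpr, computed TMM factors and ran a quasi-likelihood F test with Benjamini-Hochberg adjustment and a threshold of 0.05. The SE is the log2 fold change over the square root of F, and the 95% interval uses its t quantile. Ratios were compared by an exact two-sided permutation test. The fit with all 4 small subunit genes summed and the exon and coding length scales were added after the data were seen. Alternatives used DESeq2 1.42.0 and limma 3.58.1 on log2(FPKM + 1) and log2(FPKM + 0.1). The fit was tested on simulated counts. Sequences and exon lengths came from RefSeq's TAIR10.1 (Biopython 1.88), which held 99.1% of the gene identifiers. Names missing there, including GBPL3, are from background knowledge.

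The members and lists were chosen with earlier results of these data known. Named besides the 10 genes, GBPL3 and RBCL were up to 5 called genes with the smallest adjusted p per list (3 for light harvesting) and the 5 genes nearest in pattern. PIF1, GLK1, HY5, HYH, GBF1, PGLP1 and RCI3 were named after their values were seen. Counting errors assume independent reads, and no molecular identifiers were available.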

Additional observations from a re-analysis of the deposited data

How the results depend on the processing

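All 10 carbon fixation genes kept a log2 fold change between -0.59 and 0.42 under every setting run. RBCS1A, near 0 throughout, changed sign without gbpl3 replicate 1 (-0.01) and with limma on log2(FPKM + 1) and log2(FPKM + 0.1) (-0.04 in both), and SBPASE reached -0.00 in both limma fits. The number of these genes called was 1 with DESeq2 and with upper-quartile scaling, 2 (PRK and RBCS1B) without a filter on low counts, and 0 to 2 when single libraries were left out. The limma fits took FPKM, scaled to the library total, without the TMM factors of the main fit. Those factors were 0.976, 1.00 and 0.952 in gbpl3 replicates 1 to 3 and 1.04, 1.01 and 1.03 in Col-0 replicates 1 to 3. The cause of the changes in sign and in number called was not tested. Over all genes, 629 to 1443 were higher and 320 to 1238 lower when single libraries were left out. With limma, 579 and 525 were higher and 542 and 500 lower, for the larger and the smaller pseudocount.

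No pairing by replicate number was seen: over all tested genes, deviations from the genotype means correlated at -0.0461, -0.0647 and 0.0355 for numbers 1 to 3. Not every library correlated best with its own number. Correlations over all genes cannot exclude that libraries of the same number were handled together, with effects on a part of the genes. With the replicate number as a block, 916 genes were higher and 618 lower, and the number of genes called higher was 1 for thioredoxin control, 3 for photorespiration, 1 for starch and sucrose, 4 for light and plastid regulators and 2 for light harvesting. No carbon fixation gene was called with the block.

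When single libraries were left out, the genes called higher numbered 0 to 2 for the other Calvin cycle genes, 0 to 1 for Rubisco assembly, 0 to 3 for thioredoxin control, 0 to 7 for photorespiration, 0 to 2 for starch and sucrose, 3 to 7 for regulators and 2 to 11 for light harvesting, and those called lower 2 to 4 for assembly and 0 to 1 for photorespiration. With limma on FPKM none was higher in the other Calvin cycle, thioredoxin, photorespiration, starch and light-harvesting lists (0 each), and 3 and 2 regulators were, for the larger and the smaller pseudocount. Without a filter on low counts 2 assembly genes were higher and 1 photorespiration gene lower, and with DESeq2 1 photorespiration gene was lower. The differences in the RBCS1A share, in the GAPA1 to GAPB ratio and in the RCA to small subunit ratio kept their sign on raw counts, per exon length and with any library left out.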
